A study of Mus musculus with 6 samples.

Results

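Accessible chromatin was examined around 9 genes of the FoxO stress response in mouse hematopoietic stem cells: the transcription factors Foxo1, Foxo3 and Foxo4, the sestrins Sesn1, Sesn2 and Sesn3, the thioredoxin-interacting protein gene Txnip, and the antioxidant enzymes Sod2 and Cat. The genes were taken by symbol from a RefSeq table of 49550 mouse genes, and every ATAC-seq peak that overlapped a gene or the 50 kb on either side of it was kept. Peaks of the libraries that shared at least 1 bp were merged into union regions. The 9 windows held 110 of the 84592 union regions, and no region lay in more than one of the windows. In ATAC-seq the Tn5 transposase inserts sequencing adapters into open DNA, so that peaks of fragments mark accessible chromatin.

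The cells came from C57BL/6 mice at 3 months (12 weeks) of age under homeostatic conditions, with about 20000 cells sorted per sample from bone marrow as Lin-Sca-1+c-Kit+CD48-CD150+. The 3 libraries labelled Dek_fl are given as coming from Dekfl/fl mice, and the 3 libraries labelled Dek_cKO from Dekfl/fl,Tie2-Cre mice. By the labels both groups carry the floxed Dek alleles, and no group with unmodified Dek was analysed here. Tie2-Cre is active in blood and endothelial cells from early development, so its recombination is not limited to stem cells. The labels do not say whether the libraries of a group came from separate animals, and the series text speaks of duplicates where the labels give 3. Any p-value below therefore sets the difference between the groups against the spread among these libraries, which can be technical. In such a pool of cells, more cells with an open site and more opening per cell cannot be told apart.

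FoxO factors are transcription factors that growth factor signalling holds in the cytoplasm, where the kinase AKT has phosphorylated them and 14-3-3 proteins bind them. When that signal is low they enter the nucleus and switch on genes for cell cycle arrest, nutrient restraint and the removal of reactive oxygen species. In hematopoietic stem cells the FoxO factors, Foxo3 above all, are known for keeping the cells quiescent and their oxidant level low. Among the targets, sestrins restrain mTORC1, TXNIP binds thioredoxin and limits glucose uptake, SOD2 converts superoxide to hydrogen peroxide in mitochondria, and catalase breaks hydrogen peroxide down.

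The deposited lists held 23813 to 73173 peaks, and their read depth is unknown. Both replicate 3 lists were the shortest, with 23813 and 27170 peaks, and were filtered at another threshold (lowest −log10 p of 5.07 and 5.02). Their median fold over background was 7.85 and 8.31, against 4.40 to 5.32 in the other 4 lists, so a peak is described below by its percentile within its own list as well as by its fold. Replicate number thus also marks a processing difference, which both groups share. Tek is the gene whose control DNA drives Tie2-Cre, so a transgene adds copies of that DNA to the libraries labelled Dek_cKO. The region at Tek went against that, with −log10 p of 260, 576 and 56.6 in the libraries labelled Dek_fl and of 32.9, 20.5 and 8.59 in those labelled Dek_cKO, and every direction below is between the libraries as labelled. Whether the group labels are exchanged was not tested, and an exchange would turn the sign of every difference below. The region at Dek was called in all 6 libraries. It checks no label, with the floxed part of the gene not given in the sources used here. Of 8 marker genes of the sorted stem cells, 3 had a gene-end peak in every library (Kit and Mecom among them) and 5 in some, and Ly6a, which encodes the Sca-1 used in the sort, had one in 1 library. Cd48, absent from the sorted cells by protein, had a peak in all 6. Among markers of other cells, T cell genes were called for 0 to 1 of 3 in Dek_fl libraries and 1 to 2 in Dek_cKO, neutrophil genes for 0 to 1 and 1 of 3, and endothelial genes for 1 to 2 and 2 of 3. B cell genes were called for 1 to 2 of 3 in both groups and erythroid genes for 2 to 3 and 3 of 3, and Cd8a, Ms4a1, Ly6g, Elane and Cdh5 had no gene-end peak in any library.

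Each of the 9 genes had a called peak at its own start or end in every library. The share of all genes with such a peak is not given here, so the count does not set these genes apart. There were 12 regions at the genes, 11 of them called in all 6 libraries, and the other, at the upper end of Foxo4, in 4. A region counted as at a gene when it came within 1 kb of an annotated end or listed start. A further 34 regions lay in the bodies of the 9 genes, 21 lay at an end or start of another gene and 43 lay elsewhere in the windows. Of the 110 regions, 30 were called in all 6 libraries (27.3%, against 23.3% of all union regions) and 16 in a single one. Regions shared by all 6 were mostly at gene ends, with 21 there and 9 elsewhere. The same was true of the whole lists, where 11969 of the 19683 regions shared by all 6 were at gene ends.

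The peaks at the FoxO factor genes themselves had mean percentiles of fold of 42.8 to 53.6 over the 6 libraries, with single values from 4.39 to 65.8. By −log10 p the means were 46.9 for Foxo4, 73.2 for Foxo1 and 94.6 for Foxo3. Foxo1 (gene ID 56458, plus strand) lies on chromosome 3 from 52268337 to 52350109. Its start region, from 52267388 to 52270459, had a fold over background of 5.23, 4.71 and 6.19 in replicates 1 to 3 of Dek_fl, and of 5.71, 5.90 and 7.76 in those of Dek_cKO. The percentile of that fold within the list was 65.8, 52.4 and 27.1 in the Dek_fl libraries and 59.5, 58.5 and 43.3 in the Dek_cKO libraries. The groups overlapped on both scales, and both replicate 3 libraries stood lowest in percentile. The −log10 p at the Foxo1 start was 40.7, 71.2 and 17.8 in Dek_fl and 83.7, 72.1 and 19.9 in Dek_cKO.

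All 6 summits of the Foxo1 peak lay within 205 bp of the listed start. The 250 bases before that start, which the peak covers, are printed beside the later ones as a promoter with no match to the 3 motifs searched (chr3:52268087-52268336, GRCm38.p6, plus strand, from RefSeq).
Foxo1: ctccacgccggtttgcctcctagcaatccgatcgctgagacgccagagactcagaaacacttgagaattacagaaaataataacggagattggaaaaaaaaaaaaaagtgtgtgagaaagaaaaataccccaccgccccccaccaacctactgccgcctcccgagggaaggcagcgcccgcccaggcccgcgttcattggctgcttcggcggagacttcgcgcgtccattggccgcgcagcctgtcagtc
The motifs were GTAAACA (a FoxO core), CACGTG (an E-box) and TGACNNNGC (an antioxidant response element core), searched on both strands of the 300 bases from 250 before to 50 after each listed start.

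Foxo1 had 12 regions in its window, 2 of them called in all 6 libraries and 10 in neither replicate 3 library. By library the window held 11, 13 and 2 peaks in Dek_fl and 12, 14 and 2 in Dek_cKO. The other shared region lay 74704 bp into the gene body, from 52341925 to 52344157. Its fold was 5.19, 5.56 and 8.55 in Dek_fl and 5.19, 5.75 and 9.67 in Dek_cKO, in percentiles between 52.2 and 66.3. By percentile this body region ranked above the gene's own start in 3 of the 6 lists, Dek_fl replicate 2 and both of replicate 3. A body region from 52308638 to 52309692 was called in all 4 libraries of replicates 1 and 2, at up to the 88.6th percentile in Dek_fl replicate 2, and in no replicate 3 library.

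Foxo3 (gene ID 56484, minus strand) lies on chromosome 10 from 42181845 to 42276695 and had the most regions of the 9 windows, 23. The region at the Foxo3 start, from 42276161 to 42278467, had folds of 5.20, 4.08 and 8.63 in Dek_fl and 4.78, 5.30 and 9.27 in Dek_cKO. In percentile of fold these were 65.3, 40.8 and 59.3 against 45.4, 49.8 and 60.7, near the middle of each list and overlapping between groups. The same peaks had a −log10 p of 77.4, 116 and 79.9 in Dek_fl and 124, 123 and 85.2 in Dek_cKO, which is the 93.1st to 96.3rd percentile. So the region at the Foxo3 start, by its strongest peak, ranked high by p and moderately by fold in every library.

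The summits of the strongest Foxo3 peak in each list did not lie at the listed start. They were 1421, 1182 and 1259 bp before it in Dek_fl and 1444, 1182 and 1181 bp before it in Dek_cKO. Among 9130 regions at listed starts that all 6 libraries share, the median distance from summit to start was 85.5 bp, and 2.97% had all 6 summits more than 1000 bp from a start. In both replicate 3 lists that peak, which starts 727 and 734 bp before the Foxo3 start, did not cover the start, and the values above are those of this peak. A separate, weaker peak covered the start there, with folds of 3.90 in Dek_fl and 4.86 in Dek_cKO. Its −log10 p was 19.1 in Dek_fl and 27.9 in Dek_cKO, so the high rank by p in replicate 3 is not that of the start itself. In the other 4 lists a single peak spanned both positions.

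Away from the start, Foxo3 had shared regions 6298 bp and 31650 bp into the gene and 17696 bp before its start. The upstream one, from 42293475 to 42295306, had folds of 3.55, 3.53 and 4.38 in Dek_fl and 3.80, 5.18 and 8.73 in Dek_cKO. Its percentiles were 29.2, 28.8 and 4.33 in Dek_fl and 27.5, 47.6 and 54.9 in Dek_cKO. The Dek_cKO libraries of replicates 2 and 3 stood above all 3 Dek_fl libraries, and Dek_cKO replicate 1 stood below 2 of them. The summits in this region lay 18494, 17367 and 17450 bp before the start in Dek_fl and 18476, 18473 and 17248 bp before it in Dek_cKO. In replicate 2 the groups thus had their summits at different places of the region. A further upstream region, 31666 bp before the start, was called only in replicates 1 and 2, with folds of 3.48 and 7.43 in Dek_fl and 7.99 and 7.02 in Dek_cKO.

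Foxo4 (gene ID 54601) lies on chromosome X from 101254261 to 101260873, and had the weakest own peak of the 9 genes. The RefSeq promoter table has no entry for Foxo4. The region at its lower end, from 101253544 to 101255310, had folds of 4.43, 5.12 and 4.39 in Dek_fl and 5.51, 6.02 and 6.44 in Dek_cKO. The percentiles were 50.5, 59.2 and 4.39 in Dek_fl and 56.9, 59.5 and 26.0 in Dek_cKO, so the folds did not overlap while the percentiles did. Raw folds were higher in Dek_cKO at most shared regions: of all those in the 6 libraries, 86.6%, 96.1% and 68.6% had the higher fold in the Dek_cKO library of replicates 1, 2 and 3. The share of shared regions whose raw folds do not overlap between the groups is not given here.

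The upper end of Foxo4, shared with Gm614, had a weak region from 101260414 to 101260987. It was called in Dek_fl replicate 2 alone (fold 2.27) and in all 3 Dek_cKO libraries (3.07, 2.55 and 5.30), at the 3.41st to 13.4th percentile. The stronger peaks of this window belong to neighbours. The region at Snx12 lay between the 96.1st and 99.3rd percentile in all 6 lists, and that at Med12 between the 59.9th and 96.1st.

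The region of the Foxo4 window at Il2rg, which encodes the common gamma chain of cytokine receptors, was the one shared region of the 9 windows whose rank scores did not overlap between the groups. It lies from 101267585 to 101269071, with folds of 4.54, 4.73 and 5.78 in Dek_fl and 6.12, 6.03 and 8.84 in Dek_cKO. Its percentiles were 53.1, 52.7 and 20.7 in Dek_fl and 65.0, 59.7 and 56.1 in Dek_cKO. A count of 1 of 30 regions higher and 0 lower stands beside 2.1% higher and 2.27% lower among all 19683 shared regions, so it is near the background.

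By fold, the start peaks of the sestrin genes stood higher in their lists than the peaks of the FoxO genes, with mean percentiles over the 6 libraries of 66.4 (Sesn2) to 81.2 (second Sesn1 start) against 42.8 (Foxo4) to 53.6 (Foxo3). By −log10 p this did not hold for Foxo3, whose mean percentile of 94.6 was above those of Sesn2 (85.3) and the second Sesn1 start (89.9). Sesn1 (gene ID 140742, plus strand) lies on chromosome 10 from 41810574 to 41908436 and has 2 listed starts, at 41810574 and 41887439, each with a region called in all 6 libraries. The first, from 41809267 to 41811260, is shared with the neighbouring Cep57l1, and its peak cannot be assigned to one of the genes. Its folds were 6.60, 6.25 and 10.4 in Dek_fl and 6.95, 7.83 and 11.4 in Dek_cKO. The percentiles lay within a narrow band, at 83.3, 76.1 and 75.5 in Dek_fl and 75.2, 78.8 and 78.5 in Dek_cKO.

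The first Sesn1 start has a GTAAACA match on the other strand, 22 bp after the start, and a stretch of 30 bases around it is printed because 5 of the 6 libraries had a peak over it (chr10:41810585-41810614, GRCm38.p6, plus strand, from RefSeq; capitals mark the match, which reads TGTTTAC on this strand).
Sesn1: gaaccttctacTGTTTACcagccttttggg
The summits of that peak lay 297 to 643 bp from the match, all of them before the Sesn1 start.

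The second Sesn1 start, from 41886909 to 41889015, had folds of 6.18, 5.83 and 13.3 in Dek_fl and 7.10, 7.75 and 13.8 in Dek_cKO. Its percentiles were 78.8, 70.2 and 92.2 in Dek_fl and 76.9, 78.2 and 91.0 in Dek_cKO, with both replicate 3 libraries highest. All 6 summits lay within 67 bp of this start. Of the 16 regions in the Sesn1 window, 13 were called in neither replicate 3 library, and the window held 11, 14 and 3 peaks in Dek_fl and 12, 12 and 2 in Dek_cKO. A body region from 41869821 to 41870709 was called in 5 libraries, all but Dek_cKO replicate 3, at the 46.8th to 80.6th percentile.

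Sesn2 (gene ID 230784, minus strand) lies on chromosome 4 from 132492804 to 132510456. At the Sesn2 start, the region from 132509474 to 132510886 had folds of 5.82, 5.56 and 7.84 in Dek_fl and 7.02, 7.44 and 8.90 in Dek_cKO. The percentiles were 74.6, 66.4 and 49.8 in Dek_fl and 75.9, 75.2 and 56.7 in Dek_cKO. Each Dek_cKO library stood above the Dek_fl library of its number, while the groups as wholes overlapped.

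The Sesn2 promoter was the only one of the 9 listed promoters of these genes with the TGACNNNGC core, 36 bp before the start, and it is printed because all 6 libraries had a peak over the match (chr4:132510457-132510706, GRCm38.p6, minus strand, from RefSeq; capitals mark the match).
Sesn2: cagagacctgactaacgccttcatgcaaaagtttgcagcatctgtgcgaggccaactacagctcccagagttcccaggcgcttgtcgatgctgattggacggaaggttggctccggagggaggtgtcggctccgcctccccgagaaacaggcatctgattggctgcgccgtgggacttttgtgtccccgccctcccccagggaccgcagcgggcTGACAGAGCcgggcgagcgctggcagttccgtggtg
The summits lay 58, 18 and 0 bp from the match in Dek_fl and 18, 58 and 87 bp from it in Dek_cKO. Of all 32851 promoter windows, 12.4% hold this motif.

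Sesn2 had the densest window of the 9, with 13.6 regions per 100 kb, the 95.2nd percentile of 19022 windows of protein-coding genes (median 6.76). Of its 16 regions 5 were shared by all 6 libraries. Among them was a body region 15782 bp from the start, near the far end of the gene, from 132494139 to 132495210. Its folds were 4.90, 6.46 and 5.70 in Dek_fl and 7.19, 8.62 and 9.62 in Dek_cKO, without overlap. In percentile they were 59.9, 78.5 and 19.6 in Dek_fl and 77.7, 85.3 and 64.1 in Dek_cKO, where Dek_fl replicate 2 stood above 2 of the Dek_cKO libraries. Raw folds at most shared regions were higher in Dek_cKO, as given above for Foxo4, so their lack of overlap is not shown to be particular to this region. At Med18 in this window they did not overlap either, with 7.91, 9.73 and 6.97 in Dek_fl and 10.4, 11.3 and 10.5 in Dek_cKO. A weak region 34176 bp after the start, from 132475953 to 132476606, was called in Dek_cKO replicates 1 and 3 (folds 3.38 and 7.72) and in no Dek_fl library.

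Sesn3 (gene ID 75747, plus strand) lies on chromosome 9 from 14276301 to 14326134. At its start, the region from 14274882 to 14277240 had folds of 5.45, 4.70 and 12.5 in Dek_fl and 5.36, 6.55 and 13.1 in Dek_cKO. The percentiles were 69.2, 52.4 and 88.8 in Dek_fl and 54.6, 65.8 and 87.9 in Dek_cKO. Replicate 3 stood highest in both groups, which is the reverse of Foxo1, Foxo4, Sesn2 and Txnip, where it stood lowest.

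With an uncalled library counted as 0, the 2 regions away from gene ends with the highest mean percentile of fold in the 9 windows, 83.5 and 77.8, were in the Sesn3 window. One, 31544 bp before the start (14244025 to 14245489), had folds of 7.16, 7.88 and 9.98 in Dek_fl and 7.82, 8.57 and 11.6 in Dek_cKO. It ranked between the 72.0th and 91.8th percentile in all 6 lists, above the gene's own start in every replicate 1 and 2 list and below it in both replicate 3 lists. The other, 89324 bp after the start and so beyond the gene (14364847 to 14366404), ranked between the 69.4th and 88.9th percentile. A body region from 14293403 to 14294662 was called in Dek_fl replicate 2 and in all 3 Dek_cKO libraries, and a weak one from 14233780 to 14234524 in Dek_fl replicates 1 and 2 alone.

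Txnip (gene ID 56338, plus strand) lies on chromosome 3 from 96557957 to 96561857, a short gene. The Txnip start region, from 96557145 to 96558935, had folds of 5.61, 5.32 and 7.62 in Dek_fl and 5.77, 7.35 and 7.70 in Dek_cKO. In percentile these were 71.4, 62.6 and 46.9 in Dek_fl and 60.5, 74.6 and 42.7 in Dek_cKO, so neither group was higher as a whole. The −log10 p was 46.1, 103 and 28.1 in Dek_fl and 93.2, 105 and 20.8 in Dek_cKO.

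The Txnip promoter has a GTAAACA match on the gene's strand, 121 bp before the start, close under the peak summits, and is printed for that reason (chr3:96557707-96557956, GRCm38.p6, plus strand, from RefSeq; capitals mark the match).
Txnip: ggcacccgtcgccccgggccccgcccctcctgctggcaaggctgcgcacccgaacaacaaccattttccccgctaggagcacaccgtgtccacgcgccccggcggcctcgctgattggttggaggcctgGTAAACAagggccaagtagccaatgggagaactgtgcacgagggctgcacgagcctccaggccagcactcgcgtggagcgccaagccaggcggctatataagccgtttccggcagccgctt
The summits lay 10, 12 and 53 bp from the match in Dek_fl and 44, 8 and 1 bp from it in Dek_cKO. GTAAACA occurs in 3.65% of the 32851 promoter windows and in 2 of the 9 of these genes, Txnip and the first start of Sesn1. CACGTG occurs in 7.15% of all windows and in 0 of the 9. A match says only that the letters are there, and a promoter's open chromatin here was measured without any data on FoxO binding.

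The promoters of these genes were richer in G and C than most. Their 9 windows held 61.3% to 75% G and C (median of all windows 52.7%), with Foxo3 highest, and 11 to 35 CG pairs, fewest at Cat and most at Foxo3 (median of all windows 7).

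Past its end, Txnip had a region from 96562838 to 96565102 that all 6 libraries shared. Its folds were 4.73, 4.39 and 6.90 in Dek_fl and 5.28, 6.97 and 7.58 in Dek_cKO, in the 37.1st to 70.8th percentile. This region reaches within 1 kb of the annotated end of Txnip and lies inside the neighbouring Gm15441. The Txnip window had the most regions called in all 6 libraries, 6 of 11. Besides the start and this region, 4 of those 6 lay further past the gene, 2 of them at Polr3gl, 1 between those and 1 at Lix1l with Ankrd34a and Gm52628.

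By fold, the antioxidant enzymes had the highest mean percentiles of the 9 genes at their starts, 87.7 for Sod2 and 84.1 for Cat. By −log10 p, Sod2 was again highest with a mean percentile of 96.9, while Cat, with 90.1, stood below Sesn3 (95.9), the first Sesn1 start (94.9) and Foxo3 (94.6). Sod2 (gene ID 20656, plus strand) lies on chromosome 17 from 13007839 to 13018119. Its start region, from 13007467 to 13008955, had folds of 7.04, 7.04 and 12.9 in Dek_fl and 8.0, 9.15 and 13.4 in Dek_cKO. The percentiles were 87.3, 84.9 and 90.6 in Dek_fl and 85.4, 88.7 and 89.3 in Dek_cKO, a narrower span than at the other starts described here. All 6 summits lay within 139 bp of the start.

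The Sod2 window was sparse, with 3 regions in all, each called in all 6 libraries, at Sod2, at Wtap and at Acat2 with Gm15946. Its density of 2.72 regions per 100 kb was at the 14.7th percentile of gene windows. The Acat2 region was the strongest of the 110 by mean percentile, between 99.2 and 99.98 in every list. The Sod2 body held no called peak in any library away from the start.

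Cat (gene ID 12359, minus strand) lies on chromosome 2 from 103453904 to 103485153. Its start region, from 103484250 to 103485873, had folds of 7.42, 6.65 and 10.8 in Dek_fl and 7.96, 8.50 and 12.7 in Dek_cKO. The percentiles were 90.1, 80.8 and 78.3 in Dek_fl and 85.1, 84.4 and 86.1 in Dek_cKO, which overlap. The summits lay within 105 bp of the start.

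Cat was the one window in which only the start peak was called in replicate 3, with 6, 9 and 1 peaks in Dek_fl and 9, 9 and 1 in Dek_cKO. Of its 10 regions, 9 were called in neither replicate 3 library. That held for strong regions too. The region from 103439226 to 103440506, 45287 bp from the start and beyond the gene, had folds of 5.89 and 8.82 in the first 2 Dek_fl lists, against 9.37 and 9.17 in the first 2 of Dek_cKO, at the 75.2nd to 96.5th percentile. Over those 4 lists its mean percentile was 88.7, above the means of both distal Sesn3 regions over 6. A region at Elf5, from 103424165 to 103425722, was called in the same libraries, at the 73.0th to 94.1st percentile in those 4 lists.

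Over all 9 windows, regions away from gene ends were absent from replicate 3 more often than regions at them. Of 35 such regions called in all 4 lists of replicates 1 and 2, 22 were in neither replicate 3 list (62.9%, against 58.7% of all union regions of that kind). Of 27 at gene ends, 5 were (18.5%, against 25.3% of all). An absent peak is not shown to be closed chromatin, since those lists are shorter.

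**Figure D1:**
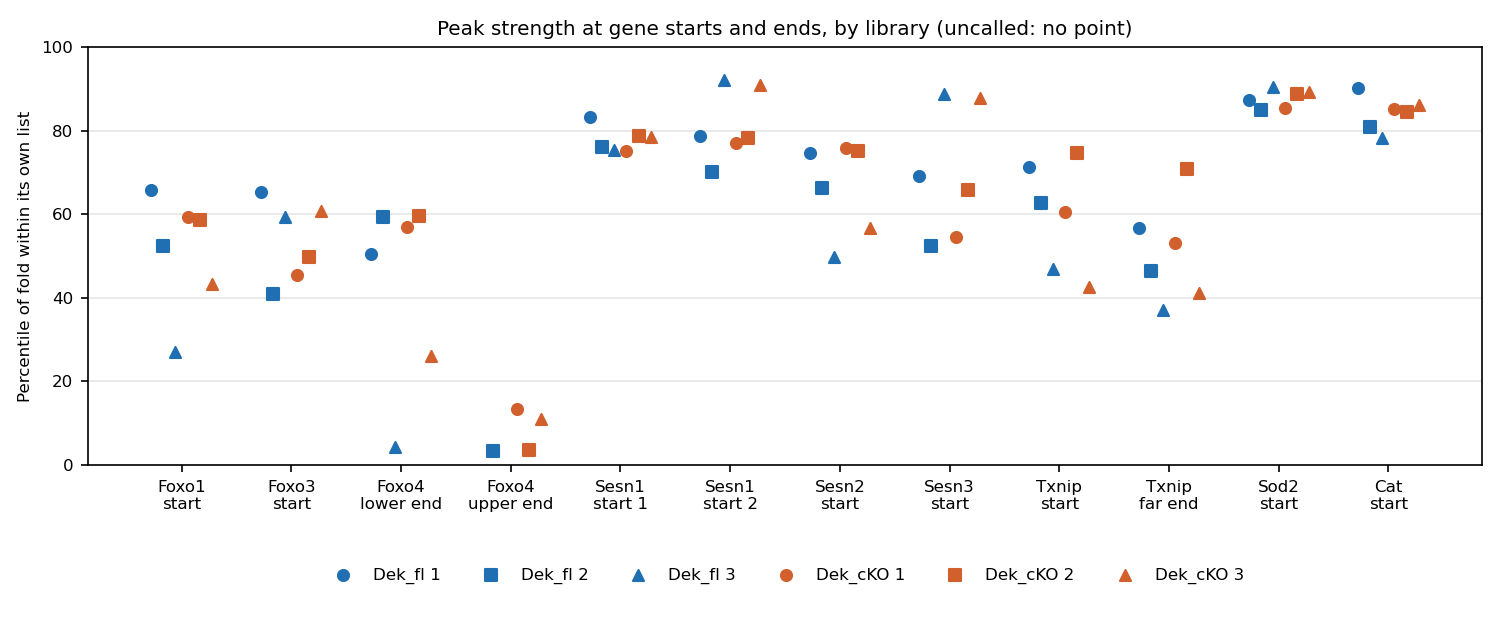
Percentile of fold within each list (vertical axis, 0 to 100) for the 12 regions at the starts and ends of the 9 genes, 1 point per library, colour for group and shape for replicate; a missing point is an uncalled region. Sod2 and Cat sit between 78.3 and 90.6 in all 6 libraries, Foxo1, Foxo3 and Foxo4 between 4.39 and 65.8 at their main regions, and the 2 colours overlap at each of the 11 regions called in all 6 libraries.

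To place the genes among each other, the folds of the 19683 regions called in all 6 libraries were ranked within each library and turned into normal scores, with 0 at the median region. The mean score over the 6 libraries fell from 0.65 ± 0.38 (SD, n = 6 libraries) at Sod2 through 0.48 ± 0.30 at Cat, 0.35 ± 0.70 at the second and 0.19 ± 0.32 at the first Sesn1 start, -0.10 ± 0.91 at Sesn3, -0.20 ± 0.13 at Sesn2 and -0.42 ± 0.19 at the Txnip start. Below these stood Foxo3 with -0.67 ± 0.60, the Txnip far end with -0.71 ± 0.25, Foxo1 with -0.71 ± 0.20 and Foxo4 with -1.03 ± 0.50. Of the 10 neighbouring pairs in this order, 9 differed by less than the SD of their difference over the libraries. The exception was Sesn2 over Txnip, by 0.22 ± 0.21, which held in 6 of 6 libraries. The scores use only the peak caller's fold, which does not correct for the width or base composition of a region.

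The median score of the 11969 shared regions at gene ends was 0.19. Against these, the Sod2 start stood at the 68.5th percentile, Cat at the 61.7th and the Sesn1 starts at the 56.5th and 49.8th. Sesn3 and Sesn2 stood at the 38.6th and 34.5th, the Txnip start at the 26.5th, Foxo3 at the 19.2nd, Foxo1 at the 18.0th and Foxo4 at the 10.6th. By fold, the 3 transcription factor genes thus lay in the lower part of shared gene-end regions. The Foxo3 scores of both replicate 3 libraries are those of the peak that did not cover its start. By −log10 p the mean percentiles within whole lists were 94.6 at Foxo3, 73.2 at Foxo1 and 46.9 at Foxo4, so this placing is by fold alone.

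The region with the most similar 6 scores was sought for each FoxO gene among 11968 other shared regions at gene ends, as a description. For Foxo1 it was the one shared by Sgsm2 and Tsr1 (Euclidean distance 0.25, median of all regions 2.65). For Foxo3 it was the one at Gm38972 and Sertad1 (0.22, median 2.86), and for Foxo4 the one at Gm10640 (0.39, median 3.46).

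The groups were then compared at the same 30 regions. None of them passed the limma test in either direction, with all adjusted p = 1.0 and 0 of the 30 at an unadjusted p under 0.05, beside 0.0% called higher and 0.0% called lower among all 19683 shared regions (68 and 19 of all regions had an unadjusted p under 0.05). The difference in score, Dek_cKO minus Dek_fl, was above 0 at 14 and below 0 at 16 of the 30, with a median of -0.02, and the median over all shared regions was -0.02 as well.

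At the genes' own regions each difference was below its standard error in the fit without a block (n = 3 per group). Foxo4 had the highest, 0.34 (SE 0.39), from mean scores of -1.20 in Dek_fl and -0.86 in Dek_cKO. Foxo3 had the lowest, -0.20 (SE 0.45), from -0.57 and -0.77. Between these, Foxo1 differed by 0.06 (SE 0.30), Sesn2 by 0.11 (SE 0.28), Cat by -0.01 (SE 0.33), Sod2 by -0.05 (SE 0.36) and Sesn3 by -0.12 (SE 0.61). The 2 Sesn1 starts differed by -0.13 (SE 0.33) and -0.02 (SE 0.50), and the Txnip start and far end by -0.11 (SE 0.29) and 0.18 (SE 0.31). Of the 11 regions 4 were above 0 and 7 below, and the scores of the groups overlapped at all 11. Differences of the size of these standard errors could not be detected with 3 libraries per group. With the replicate number as a block, the SE was 0.28 at Foxo4, Foxo3 and Sesn3, and the Foxo4 difference exceeded it. The unadjusted limma p at Foxo4 was 0.239 in that fit, and the adjusted p was 0.9999.

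The largest differences were at regions inside or upstream of 2 genes. The Foxo3 upstream region differed by 0.70 (SE 0.42, unadjusted p = 0.127 in limma, higher in 2 of 3 replicate numbers), and the Sesn2 body region by 0.69 (SE 0.36, unadjusted p = 0.0858 in limma, higher in 3 of 3). With the replicate number as a block these unadjusted limma values were 0.0268 and 0.0184, and the adjusted p was 0.9999 for both. They were the only 2 of the 30 regions with an unadjusted p under 0.05 in that limma fit. Among all 19683 regions it gave 585 such regions higher and 289 lower in Dek_cKO. That fit called 1 region higher among all 19683 (0.00508%) and 0 lower, and none of the 30. Neither region was thus distinguishable from the spread between libraries after adjustment. Over the alternatives listed under processing, the difference ran from 0.051 to 1.039 at the Foxo3 upstream region and from 0.295 to 0.992 at the Sesn2 body region.

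**Figure D2:**
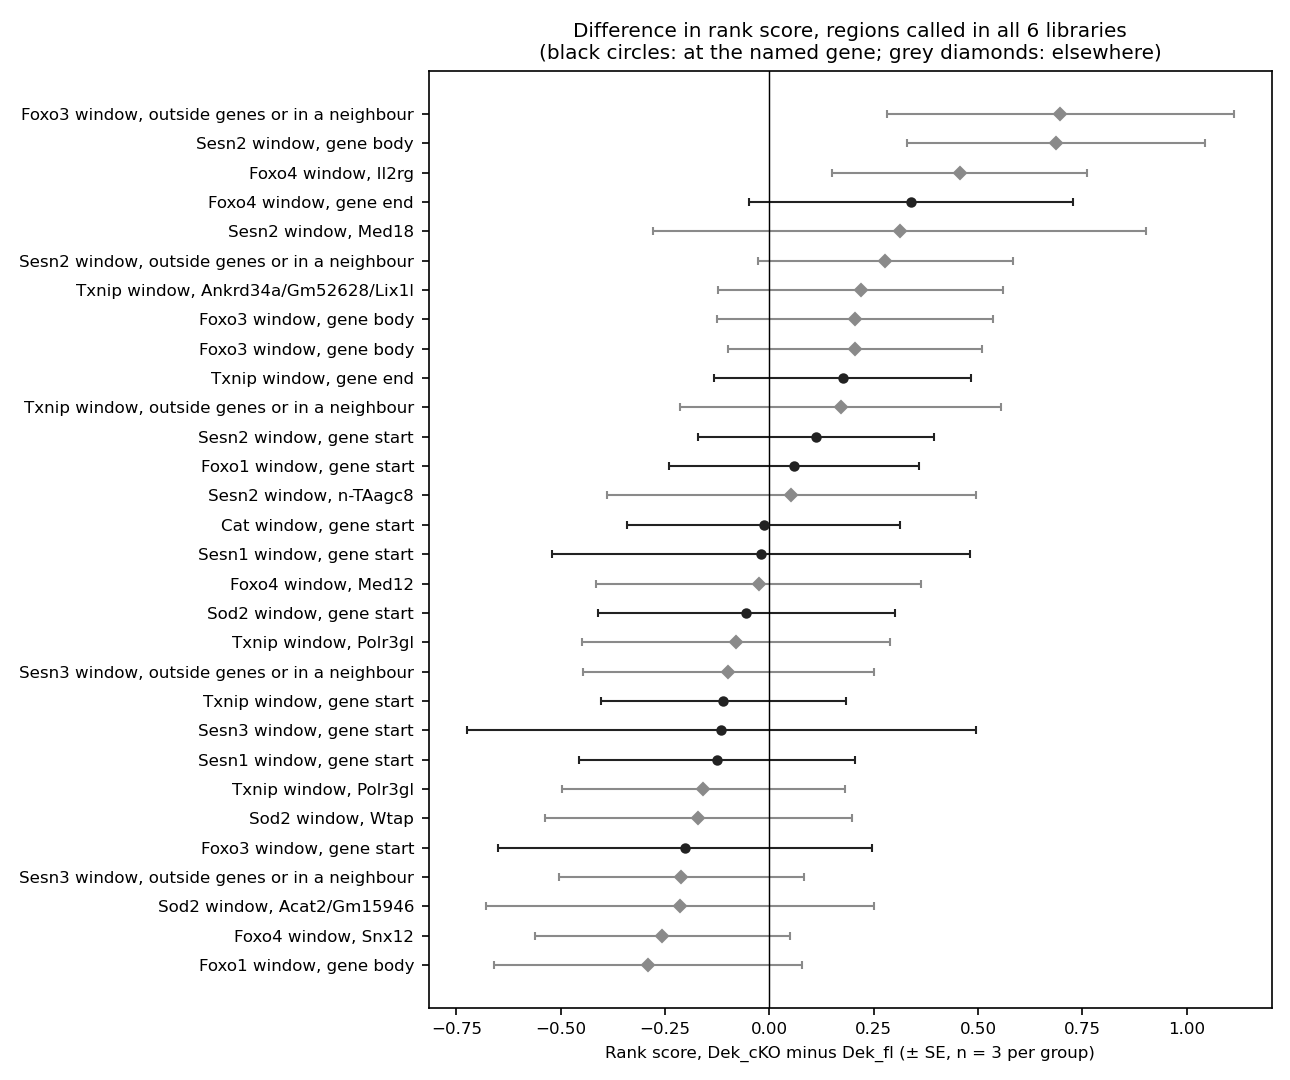
Difference in rank score (horizontal axis, Dek_cKO minus Dek_fl, ± SE, 3 libraries per group) for the 30 regions called in all 6 libraries, sorted; black circles are regions at one of the 9 genes, grey diamonds are other regions of their windows. Values run from -0.29 at the Foxo1 body region to 0.70 at the region upstream of Foxo3, with 14 above 0 and 16 below.

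The number of peaks that the windows drew from each list did not differ between groups beyond the spread either. The 9 windows together held 70, 95 and 35 peaks in Dek_fl and 94, 96 and 39 in Dek_cKO. Per 10000 peaks of the list this was 13.3, 13.3 and 14.7 in Dek_fl (mean 13.8 ± 0.80, SD, n = 3) and 13.3, 13.1 and 14.4 in Dek_cKO (13.6 ± 0.67), a log2 ratio of -0.02 with a pooled SD of 0.08. The groups overlapped in all 9 single windows (exact two-sided permutation p from 0.4 to 0.9, where 0.1 is the smallest possible), beside 1.25% of 19022 gene windows that were higher and 2.05% that were lower in Dek_cKO without overlap.

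**Figure D3:**
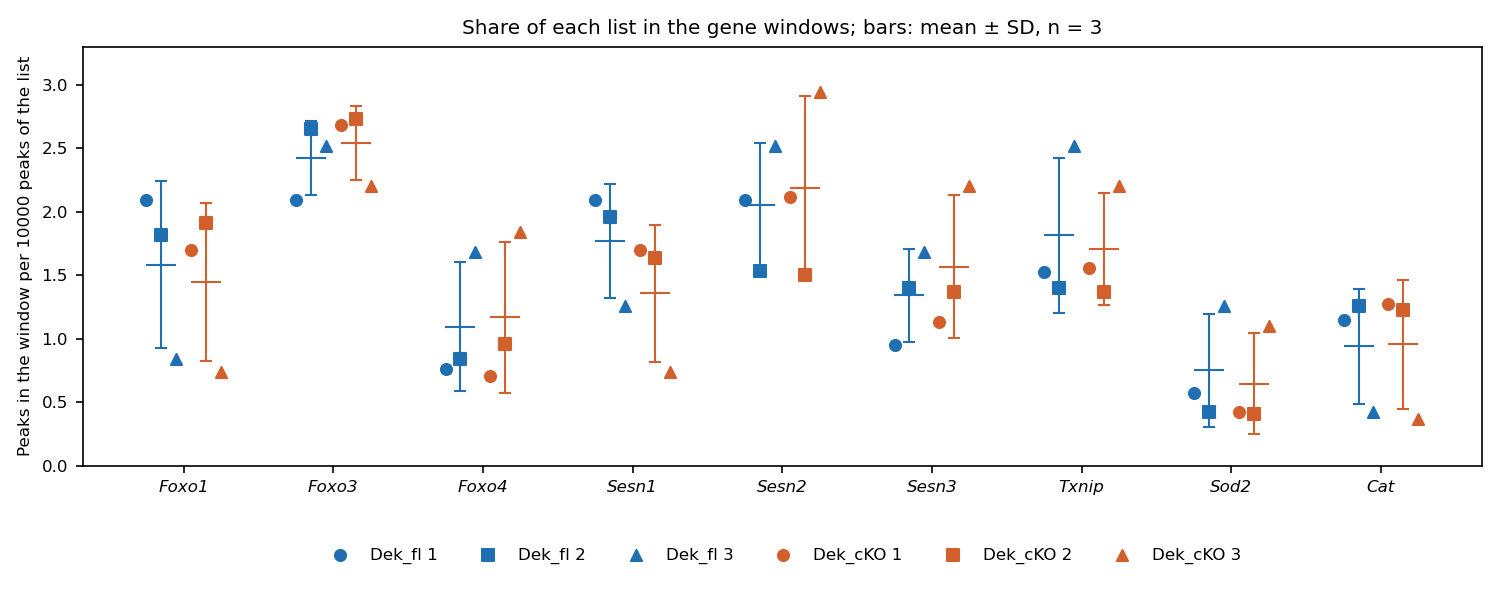
Peaks in each gene's window per 10000 peaks of the library's list (vertical axis), 1 point per library with the mean and SD of each group (n = 3). The replicate 3 points (triangles) are lowest at Foxo1, Sesn1 and Cat and highest at Foxo4, Sesn2, Sesn3, Txnip and Sod2 in both groups, while the group means lie within 1 SD of each other at every gene.

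In the 9 windows, 0 regions were called in every Dek_cKO library while missing from every Dek_fl library, and 0 the other way round. Among all union regions these shares were 0.104% and 0.00355%. Under the loosest rule, 14 of the 110 regions (12.7%) were called in at least 1 Dek_cKO and no Dek_fl library, and 4 (3.64%) in at least 1 Dek_fl and no Dek_cKO library, beside 13.5% and 6.18% of all regions. Of the 14, 13 were called in a single library, and Sesn2 (4) and Foxo3 (3) had the most. The exception was the Sesn2 region 34176 bp after its start, described above.

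Genes that act on FoxO proteins, other FoxO targets and further antioxidant genes were looked up at their own ends as lists. The counts have no share of all genes beside them, so they are not shown to be particular to these lists. Of 18 FoxO regulators, among them Sgk1 and Sirt1, 16 had a gene-end peak in every library. Ywhaz, a 14-3-3 gene, had one in the 4 libraries of replicates 1 and 2. Of 20 other FoxO targets, 19 had one in all 6, and Il7r, the interleukin-7 receptor gene, lacked one in Dek_fl replicate 3. Of 22 further antioxidant genes, 21 had one in all 6, and Sod3, the extracellular superoxide dismutase gene, had none.

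None of the shared gene-end regions of these lists passed the limma test in either direction, of 19 for regulators, 22 for targets and 22 for antioxidant genes. The median differences in score were -0.03, -0.13 and -0.13, with 7, 6 and 4 regions above 0 and 12, 16 and 18 below, beside a median of -0.02 and 47.3% above 0 over all shared regions. That background also holds regions away from gene ends, and the value for gene-end regions alone is not given here. A shift particular to these lists is therefore not shown. No single region of the lists had an unadjusted p under 0.05.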

How the data were processed

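ATAC-seq was analysed in 6 libraries, 3 per group. Each library has its own peak list, which the authors deposited. The build was mm10 and the tools were Bowtie2, Picard and MACS2, per the submitters' processing notes, with versions, settings and any Tn5 shift not given in the sources used here. A deposited row holds a score, a fold over background (a ratio), a −log10 p-value and a −log10 q-value, set within its list. The deposited score is 10 times the −log10 q-value in replicates 1 and 2 and 10 times the −log10 p-value in replicate 3. The lists give no read depth, so no interval is printed for a called or uncalled peak.

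Where a library had several peaks in a region, the highest value was used, and the summit of the peak with the highest −log10 p. Merging of peaks needed 1 bp of overlap and used chromosomes 1 to 19 and X. Genes, promoters and GC content came from RefSeq (GRCm38.p6, the assembly of mm10), with no exons or UTRs. Of the 9 genes, 8 matched the promoter table, with 9 starts. Gene ends were planned as either annotated end within 1 kb. Listed starts inside genes were added after some list genes were seen to start there. Positions are 1-based.

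Folds of shared regions were ranked per library, converted to normal scores and compared with limma 3.58.1 (R 4.3.3, Benjamini-Hochberg over all 19683 regions, threshold 0.05), a script tested on simulated data. Window shares used the exact permutation test of 20 assignments. Deviations of same-numbered libraries correlated at r = 0.272, 0.522 and 0.74 (over regions, which are not independent), so the block is printed where it changes a count. Within replicates 1 and 2 the differently numbered pairs correlated as well (0.573 for Dek_fl 2 with Dek_cKO 1, 0.307 for Dek_fl 1 with Dek_cKO 2), so these numbers are not shown to pair single libraries.

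Named were the 9 genes, genes sharing their regions, Dek and Tek, list genes called in 1 to 5 libraries (1 of them is not reported here), the nearest pattern to each FoxO gene, regions called in one group, and the 3 strongest regions away from gene ends. Other single regions and Sod3 were named after their values were seen. The genes and lists were chosen with earlier results of these data known. Alternatives were ranking by p or q, equal-length lists of 23809 peaks, −log10 q of at least 10, a replicate block, a batch term, other windows (10 kb, gene body), summit or 50% overlap, and leaving out libraries.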

Additional observations from a re-analysis of the deposited data

How the results depend on the processing

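No region at the 9 genes passed the limma test in any alternative (lowest adjusted p 0.9753). Over all shared regions the count ranked higher was 1 with the replicate block and 0 in the other alternatives, and the count ranked lower was 0 throughout. The block left every call at the 9 genes as it was. The sign of a difference in score was weak: 29 of 141 recomputed values changed it, with the cause not tested. Ranking by −log10 p or by −log10 q gave 0.057 at Cat, 0.058 at the second Sesn1 start, 0.202 at Sesn3 and 0.128 at Sod2. Peaks with −log10 q of at least 10 gave 0.001 at Cat. Replicates 1 and 2 alone gave -0.165 at Foxo1 and -0.085 at Foxo4. Leaving out 1 library at a time gave -0.226 to 0.117 at Cat, -0.069 to 0.211 at Foxo1, -0.599 to 0.105 at Foxo3, -0.056 to 0.6 at Foxo4, -0.35 to 0.025 and -0.432 to 0.442 at the Sesn1 starts, -0.685 to 0.441 at Sesn3 and -0.275 to 0.202 at Sod2. Sesn2 (0.021 to 0.177), the Txnip start (-0.225 to -0.015) and the Txnip far end (0.028 to 0.313) kept their sign in those and the other alternatives. The log2 ratio of window shares ran from -0.06 to 0.03. With replicates 1 and 2 only, 1 of the 110 regions was called in Dek_fl alone and 0 in Dek_cKO alone (0.333% and 3.02% of all regions). With replicate 3 only, 7 were called in Dek_cKO alone and 3 in Dek_fl alone (6.36% and 2.73%), near the 6.84% and 3.05% of all regions. Leaving out 1 library gave 0 to 2 in Dek_cKO alone and 0 to 1 in Dek_fl alone. The 2 arose without Dek_fl replicate 2, in the Sesn3 body and at the upper end of Foxo4 (0.877% of all regions). Without Dek_cKO replicate 2 it was the Sesn2 region at 132475953 (0.218% of all regions), and without Dek_fl replicate 3 a Sesn3 region at 14233780 was in Dek_fl alone (0.325%). Foxo4 could not be ranked in equal-length lists or at −log10 q of at least 10, because not all libraries kept its peak.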
